A study of Mus musculus with 6 samples.

Results

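Canonical PRC1 is a Polycomb repressor complex, and 9 genes that encode its Cbx, Pcgf and Phc subunits are described here: Cbx2, Cbx6, Cbx7 and Cbx8, Bmi1 and Pcgf2, and Phc1, Phc2 and Phc3. They were taken by symbol from count tables of 24982 genes, and each of the 9 symbols occurs in every table. RNA came from KMWT1, a mouse glioma cell line, 48 hours after transfection with a control siRNA (samples 1, 2 and 3) or with a pool of siRNAs against YY1 (samples 4, 5 and 6). Both groups thus went through transfection and come from 1 cell line, and no untransfected cells are among the samples. The comparison asks how the RNA of these genes differed once YY1, a zinc finger transcription factor studied as a partner of Polycomb proteins, was lowered.

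PRC1 joins ubiquitin to histone H2A through its catalytic RING subunits Ring1 and Rnf2. In the canonical form, a Cbx protein reads the trimethylated histone H3 that the partner complex PRC2 makes, Bmi1 or Pcgf2 pairs with the RING subunit, and a Phc protein links complexes to each other through its SAM domain. Each position is filled by 1 of several paralogs, so the make-up of the complex can differ between cell types. Bmi1 is widely studied in neural stem cells and glioma, where it represses the Cdkn2a locus.

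Of the 9 genes, 0 had an adjusted p under 0.05 over the 12148 genes tested with edgeR, and 0 did with DESeq2 or limma-voom. With edgeR the share of all genes tested with such a p was 0.00823%, which is Yy1 alone. DESeq2, run without the low-count filter of the other tools, gave a p-value for 17046 genes and called 19. It can leave low-count genes out of its adjustment, so 17046 need not be the number adjusted over. With limma-voom 1 of 12148 was called. At an unadjusted p under 0.05 there was 1 of the 9 with each of the 3 tools, Cbx7, where 10.8% of all tested genes had such a p with edgeR. Cbx7 was also the 1 member whose 3 YY1 siRNA samples did not overlap the 3 control samples, a pattern found in 16.3% of all genes tested. Neither count of members stands apart from those shares. The median log2 fold change (YY1 siRNA minus control siRNA) was 0.0046 over the 9 members and 0.0007 over all genes tested. The 95% interval of the change lay within 1.5-fold in both directions for 9 of the 9 members and for 82.2% of all genes.

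Counts in genes per library ran from 15738457 to 20644057. Yy1 stood at 127, 128 and 127 CPM (counts scaled to library size with TMM factors) in control samples 1, 2 and 3 and at 81.2, 77.6 and 78.6 CPM in YY1 siRNA samples 4, 5 and 6. Yy1 fell in all 3 YY1 siRNA samples, with an edgeR log2 fold change of -0.68 (SE 0.0644, adjusted p 0.00154). Counts that fell in no gene made up 7.99% to 9.03% in control samples, 7.87% in sample 4, 10.7% in sample 5 and 11.3% in sample 6. Sample 6 was also the shallowest library. The labels name no separate cultures within a group, so each p-value rests only on how these samples vary, and that variation may be technical. Of the glioma markers Sox2 (671 ± 43.9 CPM in control samples, SD, n = 3), Nes (279 ± 15.3) and Pdgfra (344 ± 28.4) were abundant, while Olig2, Prom1 and Fabp7 had 0 counts in the 6 libraries. Of the astrocyte markers, 5 of 7 stood under 1 CPM, among them Gfap and Aqp4, while Gja1 stood at 619 ± 11.7 CPM and S100b at 8.38 ± 1.57 CPM in control samples. In such bulk RNA, fewer cells of a type and less RNA per cell cannot be told apart.

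Promoter sequence from RefSeq (GRCm38.p6, the assembly of mm10) was matched by symbol for 8 of the 9 members, all but Cbx2. Each window runs from 250 bases before an annotated transcription start to 50 bases after it. The YY1 motif was searched on both strands as AANATGGCG and as AANATGGC, the first of which contains the second. Among 32851 promoters of the same length in the table, 2.38% held the longer form and 6.05% the shorter. In the members, the longer form occurred in Phc3 alone and the shorter form in Phc3, Bmi1 and Pcgf2. These 3 stretches are shown because YY1 was the factor lowered. Capitals mark the match, and in Bmi1 and Pcgf2 the match is on the opposite strand, so the reverse complement is read.

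Phc3: tggaggagagAAGATGGCGgaagcggagt
Bmi1: cggactccgaGCCATTTTggagccggtg
Pcgf2: gaggaaaaaaGCCATTTTgccccccccc

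The Phc3 stretch lies on the minus strand at chr3:30969372-30969400, and its motif covers bases 26 to 34 of the transcript. The ATG in it is the annotated start codon of 4 of the 8 Phc3 transcripts that have one (GENCODE M21), so these letters are also coding sequence. The Bmi1 stretch lies on the plus strand at chr2:18676838-18676865, with the match at positions -170 to -163 from the start. The Pcgf2 stretch lies on the minus strand at chr11:97699720-97699747, with the match at positions -89 to -82 from the RefSeq start. The GENCODE M21 model of Pcgf2 runs to 97700497, so this stretch lies inside the annotated gene. A match is a description of letters and not of binding. The windows of Cbx6, Cbx7, Cbx8, Phc1 and the 3 annotated starts of Phc2 held neither form of the motif.

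The Cbx7 window is shown in part because Cbx7 was the member whose groups did not overlap. It is the stretch on the minus strand at chr15:79932769-79932896, from 250 to 123 bases before the RefSeq start, with CpG dinucleotides in capitals. No annotated exon of Cbx7 covers it. The GENCODE M21 model of Cbx7 runs to 79971119, so the stretch lies inside the annotated gene.

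Cbx7: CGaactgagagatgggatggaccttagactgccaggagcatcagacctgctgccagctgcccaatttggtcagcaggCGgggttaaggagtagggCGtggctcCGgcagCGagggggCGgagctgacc

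The 128 bases hold 6 CpG, and the whole Cbx7 window of 250 bases before and 50 after the start holds 33. That is more than in 91.4% of the promoters in the table, whose median is 7. The 3 windows of Phc2 hold 19, 2 and 45. The Cbx6 window holds 31, Cbx8 24, Bmi1 23, Phc3 15, Pcgf2 10 and Phc1 9.

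Levels between genes were compared as TMM CPM per kb of annotated exon. In control siRNA samples Bmi1 was highest at 26.6 ± 0.412 CPM per kb, followed by Phc2 at 19.7 ± 0.298, Cbx6 at 13.6 ± 0.249 and Pcgf2 at 11.1 ± 0.464 (SD, n = 3). Phc3 (4.72 ± 0.198), Phc1 (3.91 ± 0.0876) and Cbx2 (3.73 ± 0.101) formed a lower tier, with Cbx8 (2.49 ± 0.297) and Cbx7 (2.08 ± 0.164) lowest. Over the 6 libraries, neighbours in this order did not overlap except Phc1 with Cbx2 (3.45 to 4.01 and 3.62 to 3.81) and Cbx8 with Cbx7 (2.19 to 2.83 and 1.94 to 2.73). The order at the top depends on the gene model: divided by the longest transcript instead of the union of exons, Phc2 stood at 35.3 ± 0.533 and Bmi1 at 29.4 ± 0.456 CPM per kb. The other places in the order were the same with both lengths.

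**Figure D1:**
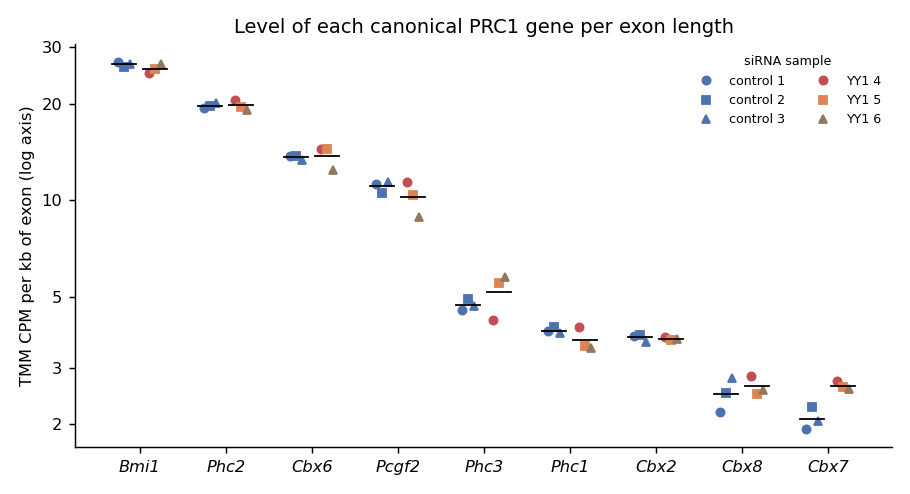
Level of the 9 genes in TMM CPM per kb of exon (log axis), ordered by the control mean, with 1 point per library and a black line at each group mean (n = 3). Bmi1 stands at 25.04 to 26.97 and Cbx7 at 1.94 to 2.73 over the 6 libraries.

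The Cbx subunits carry the chromodomain that reads trimethylated H3. Cbx7 lies on the minus strand of chromosome 15 from 79915807 to 79971119 (mm10). It stood at 12.6, 14.6 and 13.2 CPM in control samples 1, 2 and 3 and at 17.7, 16.9 and 16.7 CPM in YY1 siRNA samples 4, 5 and 6, from 250 to 338 counts per library. All 3 YY1 siRNA samples were above all 3 control samples, with control sample 2 the closest to them. The fitted level was 27.1% higher with YY1 siRNA, a log2 fold change of 0.35 (SE 0.0928, 95% interval 0.14 to 0.55). Its unadjusted p was 0.0027, the 130th smallest of 12148, and its edgeR adjusted p of 0.252 did not pass. Over 9 alternative settings and tools the log2 fold change ran from 0.33 to 0.37 (adjusted p 0.125 to 0.463), and without each sample in turn from 0.30 to 0.41 (adjusted p 0.16 to 0.857). The annotation places 100 bases of Cbx7 exon, 1.5% of it, under the gene Apobec3 on the other strand. Apobec3, an antiviral cytidine deaminase gene, stood at 45.9 ± 1.63 and 46.2 ± 0.214 CPM in control and YY1 siRNA samples.

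Cbx6 (chromosome 15, 79823896 to 79834688, minus strand) was the most abundant Cbx member. It stood at 146, 146 and 142 CPM in control samples and at 153, 153 and 132 CPM in YY1 siRNA samples 4, 5 and 6. Samples 4 and 5 were the highest of the 6 libraries and sample 6 the lowest, so the groups overlapped. The log2 fold change was 0.014 (95% interval -0.15 to 0.18) and turned to -0.0068 with library size alone. The gene Npcd, annotated on the same strand, shares 563 exon bases with Cbx6, 5.3% of its exons, so the counts from there are uncertain.

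Cbx2 and Cbx8 are neighbours on chromosome 11, at 119022962 to 119031270 on the plus strand and 119036305 to 119040969 on the minus strand. Cbx2 stood at 16.1, 16.2 and 15.4 CPM in control samples and 15.9, 15.6 and 15.7 CPM in YY1 siRNA samples. All 3 YY1 siRNA values lay within the range of the control samples, with a log2 fold change of -0.013 (95% interval -0.20 to 0.17). Cbx8 was the least abundant in CPM, with 144 to 198 counts per library. Control samples had 8.03, 9.19 and 10.2 CPM of Cbx8 and YY1 siRNA samples 10.4, 9.13 and 9.40 CPM, so the groups overlapped. Its log2 fold change was 0.080 (95% interval -0.17 to 0.33).

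**Figure D2:**
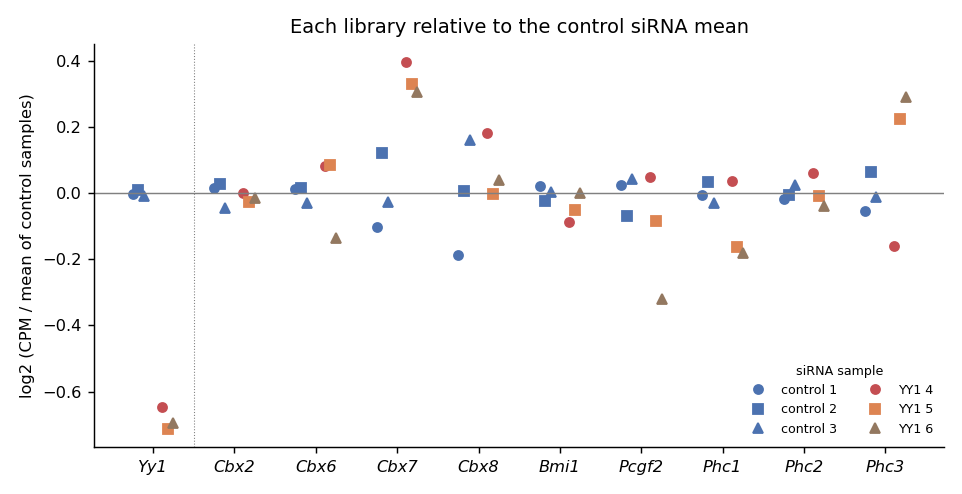
Log2 ratio of each library's CPM to the mean of the 3 control siRNA samples, for Yy1 and the 9 genes, with 1 point per library. Yy1 is separated downward and Cbx7 upward in all 3 YY1 siRNA samples, while the other members overlap between groups and Phc3 is split between sample 4 and samples 5 and 6.

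Bmi1 and Pcgf2 are alternative RING finger partners of Ring1 and Rnf2. Bmi1 (chromosome 2, 18677018 to 18686629, plus strand) stood at 107, 104 and 106 CPM in control samples and at 99.5, 102 and 106 CPM in YY1 siRNA samples. Sample 6 lay among the control samples and samples 4 and 5 just below them. The log2 fold change was -0.045 (SE 0.065, 95% interval -0.19 to 0.096, edgeR adjusted p 0.807). Pcgf2, also called Mel18 (chromosome 11, 97688823 to 97700497, minus strand), stood at 39.7, 37.1 and 40.2 CPM in control samples and at 40.3, 36.8 and 31.2 CPM in YY1 siRNA samples. Sample 4 was the highest and sample 6 the lowest of the 6 libraries. The Pcgf2 log2 fold change was -0.11 (SE 0.0931, 95% interval -0.31 to 0.094, edgeR adjusted p 0.664), and it was -0.023 without sample 6.

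The Phc proteins hold the SAM domain through which PRC1 complexes cluster. Phc2 (chromosome 4, 128654702 to 128752881, plus strand) was the most abundant Phc gene, at 138, 139 and 142 CPM in control samples and 145, 138 and 136 CPM in YY1 siRNA samples. Sample 4 was highest and sample 6 lowest, and the control samples lay between them. The log2 fold change was 0.0046 (95% interval -0.14 to 0.15), with a sign that turned with library size alone (-0.017). Phc1 (chromosome 6, 122317731 to 122340561, minus strand) stood at 20.6, 21.2 and 20.3 CPM in control samples and at 21.2, 18.5 and 18.3 CPM in YY1 siRNA samples. Samples 5 and 6 lay below every control sample while sample 4 equalled the highest control. Its log2 fold change was -0.097 (95% interval -0.29 to 0.094, edgeR adjusted p 0.682).

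Of the 9 members, Phc3 had the widest spread in CPM among the YY1 siRNA samples (SD 14.5 CPM, against 3.47 CPM in control samples). The gene lies on the minus strand of chromosome 3 from 30899371 to 30969415. It stood at 79.4, 86.2 and 81.7 CPM in control samples and at 73.8, 96.2 and 101 CPM in YY1 siRNA samples 4, 5 and 6. Sample 4 was the lowest of the 6 libraries and samples 5 and 6 the highest. Yy1 RNA stood at 81.2, 77.6 and 78.6 CPM in samples 4, 5 and 6, and these data hold no YY1 protein level. Whether the split is related to the lowering of YY1 was not tested. The Phc3 log2 fold change was 0.13 (SE 0.105, 95% interval -0.10 to 0.36, edgeR adjusted p 0.642). Without sample 4 it was 0.26 (SE 0.0655, unadjusted p 0.00286, adjusted p 0.111), which made 2 members with an unadjusted p under 0.05. Without sample 6 it was 0.037.

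The libraries with high Phc3 were those with the larger share of counts in no gene. The nuclear-retained RNA Kcnq1ot1 had the same split, at 5.24, 6.59 and 8.25 CPM in control samples and 4.77, 11.95 and 10.8 CPM in samples 4, 5 and 6. The nuclear RNA Malat1 stood at 456 to 615 CPM in control samples and at 363, 704 and 770 CPM in samples 4, 5 and 6. Of the 6 RNAs in that list, 3 were under 1 CPM (Meg3, Miat and Snhg11). The summed level of the list was 1778 to 2306 CPM in control samples and 1535 to 2568 CPM in YY1 siRNA samples. With that no-gene share as a covariate, a setting added after the data were seen, the Phc3 log2 fold change was -0.060 (SE 0.0691, adjusted p 0.866), while that of Cbx7 was 0.37 (SE 0.101, adjusted p 0.463). In the same setting Pcgf2 went from -0.11 to -0.0040 (SE 0.086) and Phc1 from -0.097 to -0.016 (SE 0.0836). Whether RNA quality or processing differed between these libraries was not tested.

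**Figure D3:**
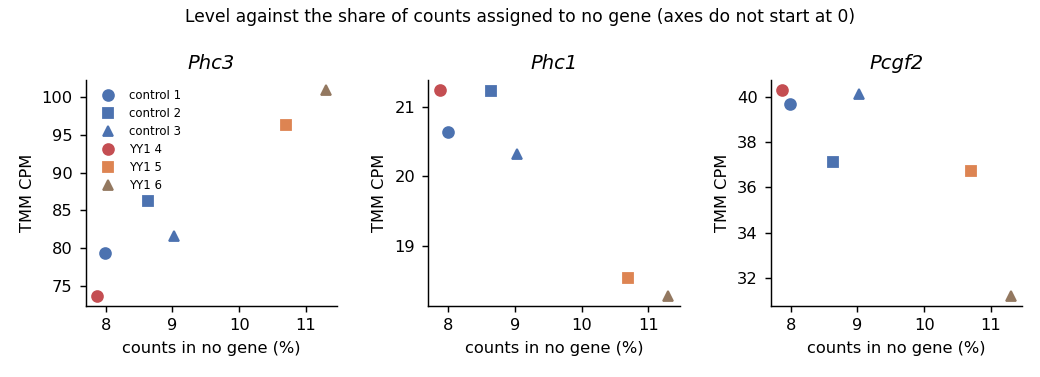
CPM of Phc3, Phc1 and Pcgf2 against the percent of each library's counts assigned to no gene, with 1 point per library and axes that do not start at 0. Samples 5 and 6, at 10.7% and 11.3%, have the highest Phc3 and the lowest Phc1, and sample 6 has the lowest Pcgf2.

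The make-up of each class was then compared as the share of its transcripts per kb of exon. Among the 4 Cbx members, Cbx6 made up 62.2% ± 1.21 in control samples and 60.5% ± 1.91 in YY1 siRNA samples (SD, n = 3). The share of Cbx7 was 8.94%, 10.1% and 9.36% in control samples and 11.5%, 11.3% and 12.1% in samples 4, 5 and 6. The groups did not overlap, and the difference of 2.16 percentage points had an exact permutation p of 0.1, two-sided, the smallest that 3 against 3 allows (0.3 adjusted over the Cbx7, Bmi1 and Phc2 shares, chosen with earlier results known, and 0.72 over all 9 shares computed). Cbx7, in the last place among the 4 in control samples, thereby stood level with Cbx8 in YY1 siRNA samples (11.6% ± 0.426 and 11.6% ± 0.739). The Cbx7 share is built from the same counts as its CPM, so it adds no separate support for a difference.

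Bmi1 made up 70.6% ± 0.618 of the Pcgf pair in control samples and 71.6% ± 3.22 in YY1 siRNA samples (exact permutation p 0.8, two-sided). It reached 75.03% in sample 6, where Pcgf2 was lowest, and 68.7% in sample 4, so the YY1 siRNA samples lay on both sides of the control samples. Phc2 made up 69.6% ± 0.753 and 69.2% ± 2.02 of the Phc transcripts (exact permutation p 0.8, two-sided). Phc3 took 16.3% to 17.2% in control samples, 14.6% in sample 4, 19.2% in sample 5 and 20.3% in sample 6. Summed over its 3 genes, the Phc class stood at 28.4 ± 0.390 and 28.6 ± 0.199 CPM per kb in the 2 groups. The Cbx sum was 21.9 ± 0.373 and 22.7 ± 1.31 CPM per kb. Bmi1 and Pcgf2 together stood at 37.65 ± 0.848 and 36.01 ± 0.524 CPM per kb.

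**Figure D4:**
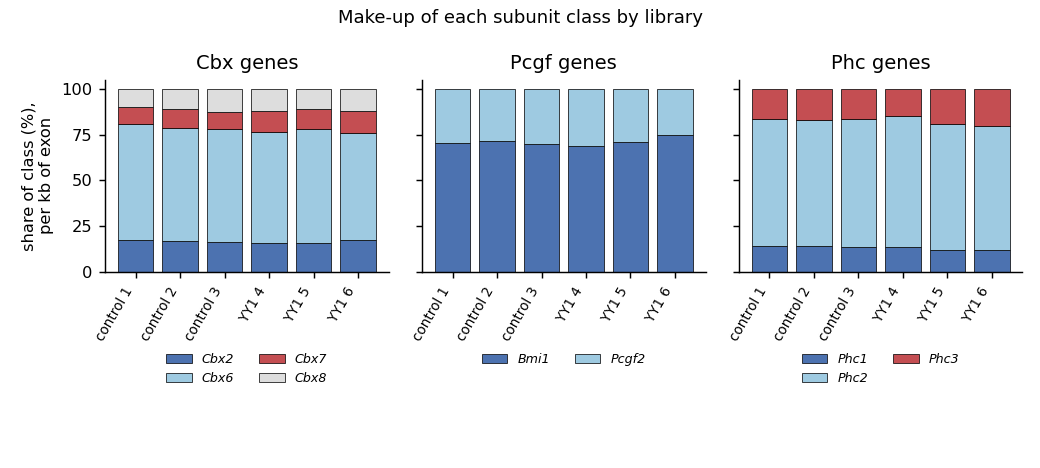
Stacked share (%) of each gene in the Cbx, Pcgf and Phc classes, per kb of exon, with 1 bar per library. Cbx6, Bmi1 and Phc2 hold the largest share in all 6 libraries, and the Cbx7 segment is 8.94% to 10.1% in control and 11.3% to 12.1% in YY1 siRNA samples.

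The patterns most like those of the members over the 6 libraries were found by Pearson r of log2 CPM, as a description with no test, taking in each class the member with the smallest p. For Cbx7 they were Cdk3-ps (r = 0.998), Rgs5 (0.989) and Dcn (0.985), of which Cdk3-ps stood under 1 CPM in every library. Rgs5 and Dcn were in the list of fibroblast and pericyte markers. Dcn, a matrix proteoglycan gene, stood at 9.68 ± 0.759 and 11.9 ± 0.751 CPM, and Rgs5, a pericyte regulator of G protein signalling, at 1.22 ± 0.199 and 1.94 ± 0.169 CPM. Of the 8 genes in that list, 6 were tested and 0 passed with edgeR. Rgs5 and Dcn were the 2 at an unadjusted p under 0.05. Both were named for their likeness to Cbx7 over these same libraries, so their small p adds no separate support. DESeq2 and limma-voom likewise called 0, with 1 and 2 at an unadjusted p under 0.05. Of the 6, 3 had a fitted change above 0 and 3 below. The summed level of the list was 956 to 1116 CPM in control samples and 807 to 1027 CPM in YY1 siRNA samples, with Col1a2 and Lum near 0. The part of these markers in the Cbx7 difference was not tested.

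Elp2 (r = 0.988), Eif4ebp2 (0.988) and Rbm14 (0.986) were most like Pcgf2. Those most like Phc3 were B230219D22Rik (0.995), Ankrd10 (0.995) and Clock (0.994). With 6 libraries such values are common: 29 genes had an r above 0.95 with Cbx7, 78 with Pcgf2 and 98 with Phc3.

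The rest of the Polycomb system was described through lists. The first holds the ubiquitin ligase subunits and other canonical parts, and 0 of its 6 members passed over all genes with edgeR, DESeq2 or limma-voom. Scml2, an SAM domain Polycomb gene, was the 1 with an unadjusted p under 0.05 in each tool. It stood at 4.14, 3.95 and 4.87 CPM in control samples and 2.94, 3.08 and 2.55 CPM in YY1 siRNA samples. The YY1 siRNA samples of Scml2 lay below the control samples, and edgeR gave a log2 difference of -0.59 (SE 0.158, adjusted p 0.252). The catalytic subunit gene Rnf2 stood at 110 ± 4.54 and 106 ± 2.81 CPM and its paralog Ring1 at 15.4 ± 2.15 and 13.9 ± 0.423 CPM. Scml4 stood at 2.78 ± 0.0726 and 2.21 ± 0.256 CPM.

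**Figure D5:**
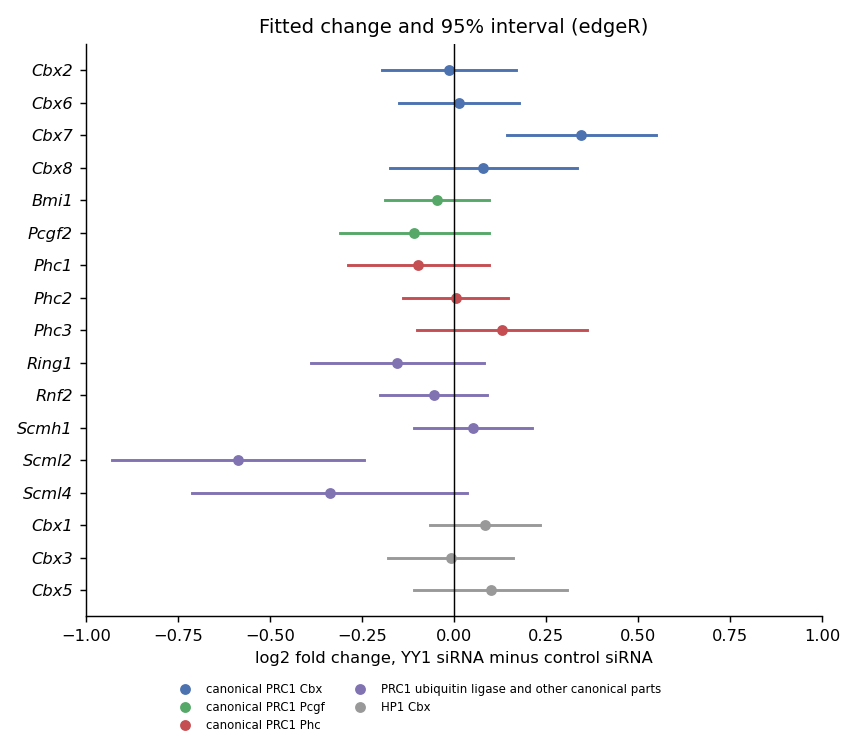
Fitted log2 fold change (YY1 siRNA minus control siRNA) with its 95% interval from edgeR, for the 9 genes, 5 other canonical PRC1 genes and the 3 HP1 genes. The intervals of Cbx7 (0.14 to 0.55) and Scml2 (-0.93 to -0.24) do not cross 0, and neither gene passed the adjusted threshold.

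Among 20 tested genes of noncanonical PRC1, in which Rybp or Yaf2 takes the place of a Cbx protein, 0 passed with any of the 3 tools. With edgeR, 2 had an unadjusted p under 0.05, 1 higher and 1 lower (3 with DESeq2 and 3 with limma-voom). L3mbtl2, a subunit of the Pcgf6 complex, stood at 16.7 ± 1.95 and 11.8 ± 0.115 CPM (edgeR adjusted p 0.148). Yaf2 stood at 94.4 ± 3.37 and 112 ± 17.1 CPM, and Skp1a at 287 ± 29.2 and 353 ± 73.3 CPM, both highest in sample 6. The 4 other Pcgf paralogs, Pcgf1, Pcgf3, Pcgf5 and Pcgf6, had log2 fold changes of 0.058, 0.013, -0.0071 and 0.023.

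In PRC2, which writes the H3 mark that Cbx proteins read, 0 of 13 genes passed with any of the 3 tools and 4 had an unadjusted p under 0.05 with edgeR, 3 higher and 1 lower (3 with DESeq2 and 4 with limma-voom). Over all genes tested, 10.8% had such a p with edgeR. Phf1, an accessory subunit, had 27.8, 29.3 and 24.9 CPM in control samples and 35.6, 35.3 and 35.1 CPM in YY1 siRNA samples (log2 fold change 0.37, SE 0.0812, edgeR adjusted p 0.154). The YY1 siRNA samples of Phf1 lay above the control samples. Lcor stood at 5.37 ± 0.315 and 7.44 ± 1.19 CPM and Phf19, another accessory subunit, at 5.98 ± 0.766 and 4.63 ± 0.655 CPM. The fourth was Rbbp4, a histone-binding subunit named after its values were seen, at 237 ± 25.6 and 272 ± 20.8 CPM. The median log2 fold change of the 13 was 0.018.

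The H2A deubiquitinase, which removes the mark that PRC1 adds, had 0 of 8 genes past the threshold and 1 at an unadjusted p under 0.05 with each of the 3 tools. This was Foxk1, at 42.2 ± 0.495 and 35.9 ± 3.82 CPM (edgeR adjusted p 0.374). Foxk2 stood at 117 ± 1.36 and 108 ± 6.99 CPM and Asxl2 at 64.0 ± 1.06 and 59.7 ± 6.98 CPM. The median over these 8 genes was -0.053.

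The HP1 genes Cbx1, Cbx3 and Cbx5 encode chromodomain proteins that bind another methyl mark of H3 and are no part of canonical PRC1. Cbx1 stood at 119 ± 2.99 and 127 ± 6.88 CPM, Cbx3 at 27.9 ± 1.34 and 27.7 ± 0.960 CPM, and Cbx5 at 252 ± 17.4 and 270 ± 34.5 CPM. In all 3 the groups overlapped, and 0 had an unadjusted p under 0.05 with any of the 3 tools.

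Genes known as Polycomb targets were then read. Of 39 Hox genes, 14 were tested and 26 stood under 1 CPM, 14 of them at 0 counts in all 6 libraries. With edgeR, 0 passed and 1 had an unadjusted p under 0.05 (0 of 25 tested with DESeq2 and 1 with limma-voom), with 7 fitted changes above 0 and 7 below. That gene was Hoxd3, at 0.888 ± 0.201 and 1.34 ± 0.109 CPM. Hoxa10 stood at 20.02 ± 1.70 and 23.0 ± 1.43 CPM. Of 30 other textbook targets, 14 were tested and 0 passed with edgeR, DESeq2 or limma-voom. Lhx2, at 0.727 ± 0.181 and 0.377 ± 0.0565 CPM, was the 1 with an unadjusted p under 0.05 with edgeR and limma-voom, and DESeq2, which tested 18, had 0. Gata6 stood at 7.92 ± 0.880 and 6.61 ± 0.490 CPM and Irx5 at 2.78 ± 0.812 and 3.64 ± 0.557 CPM. Cdkn2a and Cdkn2b, named after their values were seen, had 0 counts in all 6 libraries, where 3 counts would equal 0.145 to 0.191 CPM. Cdkn2a and Cdkn2b RNA were thus not detectable at this depth in either group. Why both had 0 counts, and whether Polycomb proteins had a part in it, was not tested.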

How the data were processed

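The authors deposited 1 table of raw read counts per gene symbol for each of 6 samples. STAR 2.6.1a, edgeR 3.30.0 and the build mm10 are named, per the submitters' processing notes. For the counting program, annotation and strand setting: not given in the sources used here. Antisense overlaps are therefore uncertain. Tables of 5 samples are marked as combined, that of sample 6 is not. Rows for counts in no gene (7.87% to 11.3% of a library) and ambiguous counts (1.01% to 1.15%) entered neither library sizes nor the main test. The no-gene share was used only as the covariate of an alternative setting.

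The test was edgeR 4.0.16 (R 4.3.3), quasi-likelihood, two-sided, with filterByExpr, TMM and robust estimation, fitted to all 6 samples and adjusted over 12148 genes by Benjamini and Hochberg (threshold 0.05). It was also run on counts simulated with the spread that it had itself estimated, and the outcome is not reported here. DESeq2 1.42.0 and limma 3.58.1 (voom) were among the alternatives. Per-length values used GENCODE M21 exons, and likeness used log2(CPM + 0.5). Within-group pairs of libraries differed by more than counting noise (chi-square over its degrees of freedom 3.04 to 30.9). Sample 6 stood furthest from the rest, at 30.9 and 22.7 against samples 4 and 5 and 19.2 to 47.7 against control samples. Samples 4 and 5 differed by 10.7, pairs of control samples by 3.04 to 10.3, and samples 4 and 5 from control samples by 4.99 to 10.8.

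The members and the gene lists were chosen with earlier results of these data known. Named genes are Yy1, the 9 members, up to 3 tested genes with the smallest p in each Polycomb list, the HP1 genes and the 3 genes most like 1 member of each class. Other named genes (Apobec3, Npcd, Rnf2, the other Pcgf paralogs, Rbbp4, cell markers, nuclear RNAs, Cdkn2a and Cdkn2b) were added after their values were seen. Values of some single genes in the lists are not reported here.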

Additional observations from a re-analysis of the deposited data

Results flagged for a closer look

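Counts that fell in no gene entered no comparison of expression, except as the covariate of an alternative setting. They made up 10.7% of the library of YY1 siRNA sample 5 and 11.3% of that of sample 6, above the highest control siRNA sample at 9.03%. Sample 4, of the same group, had 7.87%.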

How the results depend on the processing

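The covariate on counts in no gene was chosen after the data were seen. No member passed the adjusted threshold under any of the 9 alternatives or without any 1 sample, and Cbx7, Bmi1, Pcgf2 and Phc1 kept their direction in all of these, although with the covariate Pcgf2 moved from -0.108 to -0.00396 and Phc1 from -0.0973 to -0.0164. Over all genes, 7 passed with library size alone, 83 with no low-count filter and 19 with DESeq2. Leaving out single samples gave 1 to 41: 41 without sample 4, 3 without sample 6 and 2 without control sample 3. The number of members at an unadjusted p under 0.05 was 1 to 2 without each sample, with 2 without sample 4. The other 5 members changed sign in at least 1 of them. Cbx6 was -0.00677 with library size alone, and -0.0226 to 0.0755 without each sample. Phc2 was -0.0171 with library size alone, and -0.0184 to 0.0195 without each sample. Phc3 was -0.06 with the covariate. Cbx2 was -0.035 to 0.000405 and Cbx8 -0.00779 to 0.165 without each sample. For all of these the cause was not tested. The difference in Cbx7 share was 1.89 to 2.47 percentage points without each sample, 1.89 with longest transcripts and 1.74 with no length scaling. Those of Bmi1 and Phc2 changed sign without sample 6, to -0.745 and 0.404. No paired analysis was possible because the groups share no sample number. Counts per library were 144 to 198 for Cbx8 and 1407 to 1812 for Phc3, with standard errors of 0.117 and 0.105.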
